A study of Mus musculus with 3 samples.

Results

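The mature forms of miR-143 and miR-145a were followed in C57BL/6 mouse retina of 3 ages, namely 1, 7 and 17 days after birth (P1, P7 and P17). They were taken by name from the deposited miRNA lists, as the 5p and 3p forms of both hairpins (mmu-miR-143-3p, mmu-miR-143-5p, mmu-miR-145a-5p and mmu-miR-145a-3p). These are 4 of the 1915 mature miRNAs listed. At each age 5 eyes gave their retinas to a single pool and 1 small RNA library, without replication. The labels name no treatment, genotype or sex, and the study's methods give the substrain as C57BL/6J. A difference between ages therefore has no replicate check. The intervals given below cover counting error only, since PCR copies cannot be told from separate molecules here and the spread between animals was not measured.

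MiRNAs are short RNAs that guide Argonaute proteins to messenger RNAs. A hairpin precursor yields a 5p and a 3p form, of which usually one, the guide, is kept. MiR-143 and miR-145 are cut from a shared primary transcript and are best known from vascular smooth muscle cells and pericytes, together called mural cells, where they favour the contractile state. Their transcription there depends on serum response factor and myocardin. In the mouse retina the superficial vessel layer spreads over the surface after birth and the deeper layers sprout from it later, while pericytes cover capillaries and smooth muscle covers arterioles. Whole retina was sequenced, so these data do not show which cells held the miRNAs, and more cells of a type cannot be told apart from more of the miRNA in each cell.

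All 4 forms were higher at P17 than at P1. The guide strands miR-143-3p and miR-145a-5p were 7.60-fold and 9.58-fold higher (exact 95% binomial intervals 7.26 to 7.95 and 7.37 to 12.6). Their levels were also higher at each step, by 1.92-fold and then 3.97-fold for miR-143-3p. The ratio of the arms of each hairpin differed between ages by less than counting error. Relative to miR-126a-3p, the endothelial miRNA that was also higher at each later age, miR-143-3p was lower at P7 than at P1 and higher at P17 than at P7.

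The libraries held 11426320 to 12759995 miRNA reads, and levels are given as deposited, in RPM (the reads of a miRNA scaled to a fixed total of miRNA reads per library). A level resting on 3 reads, taken as the smallest that could be shown, was 0.235 to 0.263 RPM. The libraries were recognisably retinal. The neuronal and photoreceptor miRNAs miR-124-3p, miR-9-5p, miR-182-5p, miR-183-5p and miR-96-5p together gave 223656, 432211 and 387928 RPM in order of age. The photoreceptor cluster of miR-183 (with miR-96 and miR-182) grew from 7.85% of P1 reads to 30.6% of P7 reads and was at 30.2% of P17 reads. As RPM values are shares, such a gain pushes the RPM of other miRNAs down.

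The hairpin of miR-143 (gene Mir143, ENSMUSG00000065445) lies on the minus strand of mouse chromosome 18 from 61649196 to 61649258 in GRCm38, the build also called mm10. That of miR-145a (Mir145a, ENSMUSG00000065592) lies downstream on the same strand from 61647825 to 61647894, with 1301 bases between them. Both sit inside the span that RefSeq gives the long non-coding RNA gene Carmn (61645878 to 61665538). The GENCODE M21 model of Carmn (ENSMUSG00000097324, 61649625 to 61665537) ends 366 bases before the miR-143 hairpin and holds neither, and no other GENCODE gene overlapped the interval. A further copy, miR-145b (Mir145b, ENSMUSG00000098366), lies on the same chromosome from 69022199 to 69022273. It was listed with 0 reads at every age, so its level was below 0.263 RPM in each library and no read was counted for it in place of miR-145a.

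MiR-143-3p, the guide strand of its hairpin, was counted 2166 times in the P1 library, 4634 times in the P7 library and 16790 times in the P17 library. In RPM this was 189.6 (95% Wilson interval 182 to 198), 363 (353 to 374) and 1440 (1418 to 1462). The intervals of the 3 ages did not overlap, and its rank among the miRNAs of a library went from 182 to 107 and then 53. It gave 95.5%, 94.6% and 94.6% of the reads of the 4 forms at P1, P7 and P17, so their sum (199, 384 and 1523 RPM) followed this miRNA.

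MiR-145a-5p, the guide strand of its hairpin, was counted 62, 167 and 606 times in the same libraries. In RPM this was 5.43 (4.23 to 6.96), 13.1 (11.2 to 15.2) and 52.0 (48.0 to 56.3). Again each age stood above the one before with no overlap of the counting intervals. At P1 its level rested on few reads, and a fold taken from that age is correspondingly imprecise.

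The other arms were rarer. For miR-145a-3p, in order of age, there were 22, 69 and 213 reads, or 1.93 RPM (1.27 to 2.92), 5.41 RPM (4.27 to 6.84) and 18.3 RPM (16.0 to 20.9). For miR-143-5p there were 19, 29 and 143 reads, or 1.66 RPM (1.06 to 2.60), 2.27 RPM (1.58 to 3.26) and 12.3 RPM (10.4 to 14.4). The 3 ages were separate for miR-145a-3p, whereas the P1 and P7 intervals of miR-143-5p overlapped.

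**Figure D1:**
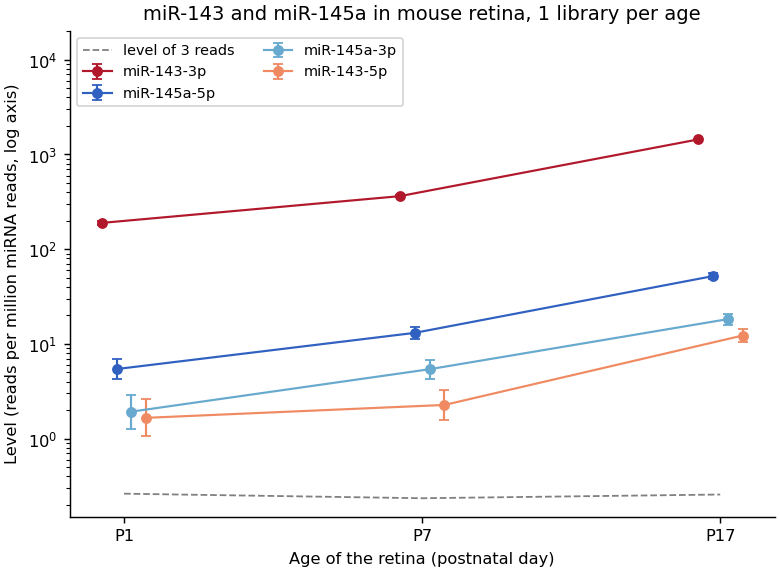
Level of each mature form (RPM, log axis) against age, 1 library per age; bars are 95% Wilson intervals of counting error and the dashed line is the level of 3 reads. All 4 forms lie above that line at every age, and miR-143-3p goes from 189.6 RPM at P1 to 1440 RPM at P17.

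In each library the order from high to low was miR-143-3p, miR-145a-5p, miR-145a-3p and miR-143-5p. The last pair did not differ beyond counting error at P1, where the reads of miR-143-5p were 0.864 times those of miR-145a-3p (exact interval 0.442 to 1.67). They differed at P7 (0.420, interval 0.263 to 0.657) and at P17 (0.671, 0.539 to 0.834). Such ratios compare reads, and adaptor ligation can favour some small RNAs over others.

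For the comparison across all miRNAs, 1 RPM was added before taking log2, and on this log2(RPM + 1) scale the change of a rare miRNA is understated. A miRNA was called changed when it differed over 2-fold between ages. The 648 miRNAs whose mean over the ages reached 1 RPM were used, and all 4 forms were among them. No p-value is given, since there was 1 library per age.

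Between P1 and P7 the increase of both forms of miR-145a passed 2-fold and that of both forms of miR-143 did not. Of all 648 miRNAs, 3.09% were over 2-fold higher at P7 and 44.8% over 2-fold lower, and 2 of the 4 forms were called higher. The log2 change was 1.13 for miR-145a-5p and 1.13 for miR-145a-3p, just above the criterion. It was 0.93 for miR-143-3p, just below it. MiR-143-5p changed by 0.30, and without a pseudocount its log2 ratio was 0.45 with an exact interval of -0.43 to 1.37, so that a difference was not detectable at this depth. The median of the 4 was 1.03 against -0.87 for all 648 miRNAs. MiR-145a-5p held place 15 and miR-143-3p place 23 from the highest change.

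The ratio of levels without a pseudocount was 1.92 for miR-143-3p between P1 and P7 (1.82 to 2.02) and 2.41 for miR-145a-5p (1.79 to 3.28). The interval of miR-145a-5p reached over that of miR-143-3p, so the calls on either side of 2-fold do not show that the hairpins differed. Reads of miR-143-3p over those of miR-145a-5p were 34.9 at P1 (27.1 to 45.7) and 27.7 at P7 (23.8 to 32.6). The log2 change of this ratio was -0.33, with an exact conditional interval of -0.78 to 0.10.

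From P7 to P17 all 4 forms were over 2-fold higher, against 14.0% of the 648 miRNAs over 2-fold higher and 11.6% over 2-fold lower. The log2 change was 1.98 for miR-143-3p, 2.02 for miR-143-5p, 1.91 for miR-145a-5p and 1.59 for miR-145a-3p. Their median was 1.95, and that of all 648 miRNAs was -0.05. The guide strands changed by nearly the same factor, 3.97 for miR-143-3p (3.84 to 4.10) and 3.97 for miR-145a-5p (3.34 to 4.74). The ratio of miR-143-3p to miR-145a-5p was 27.7 at P17 (25.5 to 30.1), with a log2 change of -0.0022 and an interval of -0.26 to 0.25.

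Over the whole period, from P1 to P17, all 4 forms were again over 2-fold higher, against 10.5% of all miRNAs over 2-fold higher and 46.8% over 2-fold lower. The log2 changes were 3.04 for miR-145a-5p, 2.92 for miR-143-3p, 2.72 for miR-145a-3p and 2.32 for miR-143-5p, with a median of 2.82 against -0.91 for all 648. MiR-145a-5p held place 11, miR-143-3p place 14, miR-145a-3p place 19 and miR-143-5p place 28 from the highest. Without a pseudocount the forms from 1 hairpin were closer to each other. MiR-143-5p was 7.38-fold higher (4.55 to 12.6) beside 7.60-fold for miR-143-3p, and miR-145a-3p was 9.49-fold higher (6.11 to 15.5) beside 9.58-fold for miR-145a-5p.

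**Figure D2:**
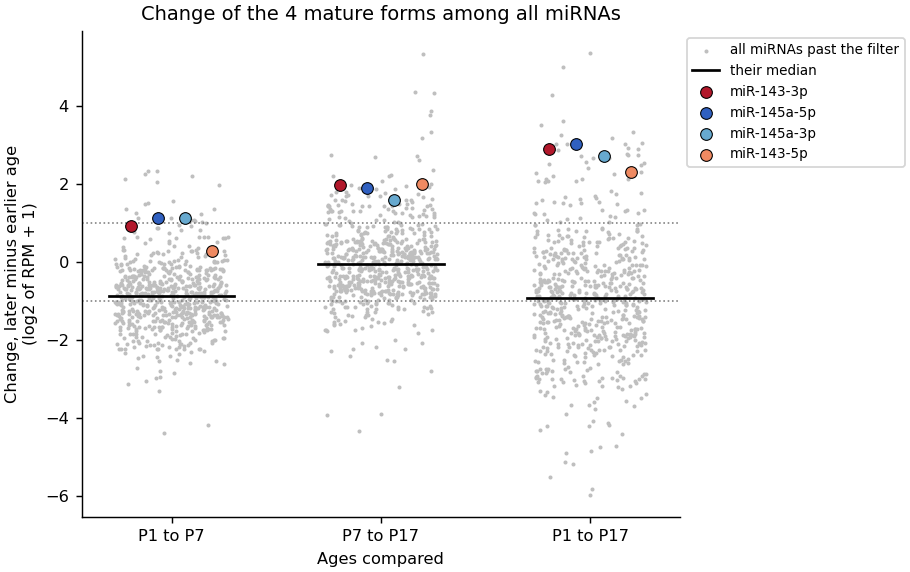
Change between ages (log2 of RPM + 1, later minus earlier) of the 648 miRNAs past the filter (grey points, spread sideways at random), their median (black bar) and the 4 forms (coloured); dotted lines mark 2-fold. The 4 forms lie above the median in each comparison, at medians of 1.03, 1.95 and 2.82.

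The size of the step from P1 to P7 depended on how the libraries were scaled. With median-of-ratios size factors, which put the change of the typical miRNA near 0, miR-143-3p changed by 1.89 from P1 to P7 and by 2.07 from P7 to P17, in place of 0.93 and 1.98. MiR-145a-5p then changed by 1.95 and 2.01, in place of 1.13 and 1.91. Under RPM the later step was thus the larger, and under size factors the steps were of similar size for both guide strands. The scaling also moved the background. From P1 to P7, 62 miRNAs were over 2-fold higher and 71 over 2-fold lower with size factors, against 20 and 290 with RPM. From P1 to P17 the numbers were 165 and 155, against 68 and 303. From P7 to P17 they were 104 and 69, against 91 and 75, but a total that omits the 10 top miRNAs of every library gave 82 and 149. Relative to the median of all miRNAs under RPM, miR-143-3p was 1.80 higher from P1 to P7, 2.04 higher from P7 to P17 and 3.83 higher from P1 to P17. For miR-145a-5p these differences were 2.00, 1.96 and 3.95.

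**Figure D3:**
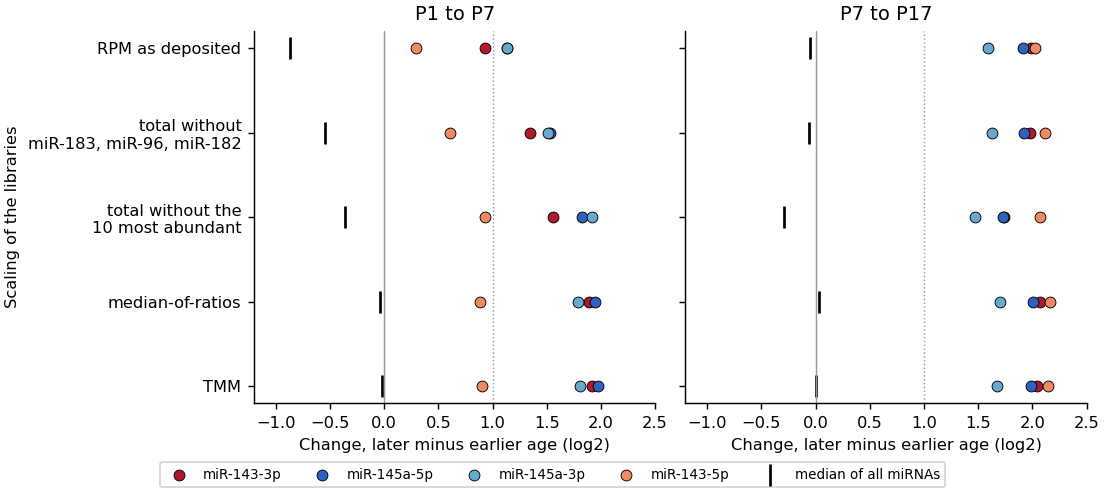
Log2 change of the 4 forms (coloured) and median of all 648 miRNAs (black bar) under 5 scalings, for P1 to P7 (left) and P7 to P17 (right); the dotted line marks 2-fold. From P1 to P7 miR-143-3p lies at 0.93 with RPM and at 1.89 with median-of-ratios size factors, and the median of all miRNAs moves with it.

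The ratio of the arms of a hairpin does not depend on scaling. Reads of miR-143-3p over those of miR-143-5p were 114 at P1 (72.8 to 189.7), 159.8 at P7 (111 to 239) and 117 at P17 (99.6 to 139). Reads of miR-145a-5p over those of miR-145a-3p were 2.82 (1.71 to 4.81), 2.42 (1.82 to 3.25) and 2.85 (2.43 to 3.34). MiR-143 was thus nearly all 3p, whereas the 5p form gave 73.8%, 70.8% and 74.0% of the miR-145a reads. From P1 to P17 the log2 ratio changed by 0.04 for miR-143 (-0.73 to 0.74) and by 0.01 for miR-145a (-0.80 to 0.78). As folds, these intervals run from 0.601 to 1.67 and from 0.576 to 1.71.

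Neither hairpin changed its arm ratio over 2-fold from P1 to P17, against 36.8% of the 190 hairpins whose arms both passed the filter and had reads at every age. The median absolute change among these hairpins was 0.71 on the log2 scale. The changes of miR-143 and miR-145a were larger than those of only 5.26% and 2.63% of hairpins. Their intervals (-0.73 to 0.74 and -0.80 to 0.78) reached past that median, so these low places are not resolved at this depth. At the single steps miR-143 changed by 0.49 and -0.44 and miR-145a by -0.22 and 0.23 (guide over other arm), and each exact interval held 0. In absolute size these changes were larger than those of 53.7% and 42.6% of hairpins for miR-143. For miR-145a they were larger than those of 28.9% and 23.2%. Over 2-fold changes at these steps were seen in 13.7% and 23.2% of hairpins.

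Retinal vessels are lined by endothelial cells, whose best known miRNA is miR-126a. In order of age, miR-126a-3p was counted 13994, 45262 and 96661 times, or 1225, 3547 and 8290 RPM. Its other arm, miR-126a-5p, had 36.5, 95.5 and 240.2 RPM. On the log2(RPM + 1) scale miR-126a-3p was higher by 1.53 from P1 to P7 and by 1.22 from P7 to P17, so its larger step was the earlier one, whereas that of miR-143-3p was the later. With median-of-ratios size factors the steps were 2.49 and 1.31 for miR-126a-3p and 1.89 and 2.07 for miR-143-3p, in the same order.

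Divided within each library by miR-126a-3p, which removes the library total, reads of miR-143-3p were 0.155 at P1 (0.148 to 0.162), 0.102 at P7 (0.0993 to 0.106) and 0.174 at P17 (0.171 to 0.177). The 3 intervals did not overlap, and P7 was the lowest. The log2 change of this ratio was -0.60 between P1 and P7 (-0.68 to -0.52), 0.76 between P7 and P17 (0.71 to 0.81) and 0.17 over the whole period (0.097 to 0.24). For miR-145a-5p over miR-126a-3p the ratio was 0.00443 at P1 (0.00339 to 0.00568), 0.00369 at P7 (0.00315 to 0.00429) and 0.00627 at P17 (0.00578 to 0.00679). Its log2 change was -0.26 from P1 to P7 with an interval that held 0 (-0.69 to 0.18), 0.76 between P7 and P17 (0.51 to 1.02) and 0.50 over the whole period (0.12 to 0.90). Both guide strands thus gained on miR-126a-3p from P7 to P17 by 1.70-fold, and the earlier decrease exceeded counting error for miR-143-3p alone, although the ratio of miR-143-3p to miR-145a-5p did not change beyond its own interval over that step. Variation between animals or library preparations was not measured and is not part of these intervals.

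**Figure D4:**
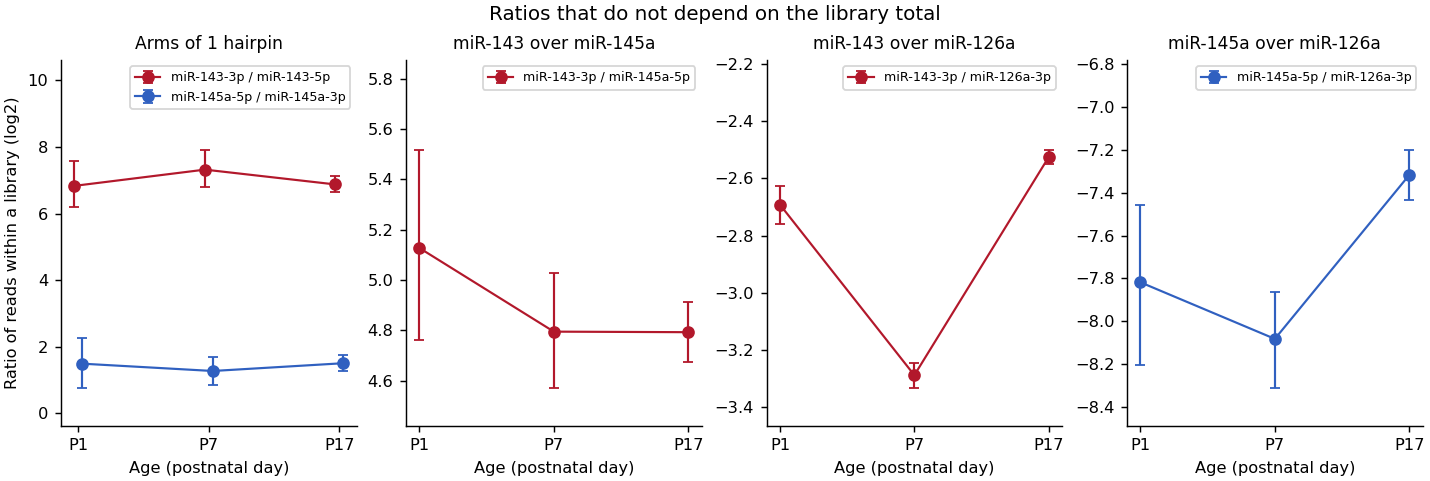
Log2 ratio of reads within a library against age for the arms of each hairpin, for miR-143-3p over miR-145a-5p, and for miR-143-3p and miR-145a-5p over miR-126a-3p; bars are exact 95% binomial intervals and each panel has its own axis range. The ratio of miR-143-3p to miR-126a-3p was lowest at P7, at 0.102 against 0.155 and 0.174 as a plain ratio.

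Other lists of miRNAs, chosen for what they mark and with earlier results of these data known, were set beside the 4 forms. The smooth muscle list held 14 miRNAs studied for their part in the growth or contractile state of vascular smooth muscle, and all passed the filter. Their sum, most of it miR-26a-5p, was 97265, 74775 and 51196 RPM in order of age, and its log2 change from P1 to P17 was -0.93 in RPM and 0.12 with median-of-ratios size factors. From P1 to P7, 1 of the 14 was over 2-fold higher and 2 were lower, where 3.09% and 44.8% of all 648 miRNAs were. From P7 to P17, 5 were higher and 1 was lower, beside 14.0% and 11.6% of all. From P1 to P17, 2 were higher and 3 lower, beside 10.5% and 46.8%. Their median log2 changes were -0.60, 0.50 and 0.13, against -0.87, -0.05 and -0.91 for all miRNAs, and with median-of-ratios size factors they were 0.34, 0.58 and 1.10, so that the sign of the P1 to P7 median depended on the scaling. With those factors 8 of the 14 were over 2-fold higher from P1 to P17 and none lower, where 165 of the 648 miRNAs were higher and 155 lower. The miRNAs over 2-fold higher from P1 to P17 were miR-29b-3p, which targets collagens and other matrix transcripts (15.2, 5.32 and 85.5 RPM), and the activity-regulated miR-132-3p (29.1, 45.6 and 131 RPM). Those over 2-fold lower were miR-26a-5p (87131, 66696 and 42403 RPM), miR-10a-5p (56.0, 13.2 and 16.5 RPM) and miR-322-5p (29.1, 22.0 and 10.3 RPM), none of which was over 2-fold lower with median-of-ratios size factors (0.01, -0.69 and -0.43).

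Of the others on this list that averaged at least 10 RPM, miR-195a-5p was over 2-fold higher at P7 than at P1 (64.3, 133.9 and 104 RPM). The proliferation-linked miR-21a-5p (6526, 5707 and 5148 RPM), miR-222-3p (45.5, 31.2 and 36.4 RPM), miR-221-3p (70.9, 44.0 and 72.6 RPM), miR-24-3p (2873, 1742 and 2596 RPM) and miR-23b-3p (299, 262 and 350.2 RPM) were within 2-fold in every comparison of RPM, and with median-of-ratios size factors miR-221-3p and miR-23b-3p were over 2-fold higher from P1 to P17 (1.06 and 1.27). MiR-31-5p (10.7, 6.19 and 20.1 RPM) and miR-1a-3p (112, 65.1 and 217 RPM) were over 2-fold higher from P7 to P17 and in RPM not over the whole period, and so was the muscle miRNA miR-133a-3p at lower levels (4.81, 2.12 and 6.00 RPM).

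MiRNAs of striated muscle, which the muscles attached to the eye hold, were in sum higher at P17 than at P7 under each of the 5 scalings, whereas the direction of the sum from P1 to P7 depended on it. MiR-1a-3p and miR-133a-3p are on the smooth muscle list as well, so their calls count under both lists. The 8 striated muscle forms summed to 161, 107 and 333 RPM in order of age. Of this, miR-1a-3p gave 112, 65.1 and 217 RPM, and miR-208a-3p had 0 reads at every age. Of the 4 past the filter, none was over 2-fold changed from P1 to P7, whereas 3 (miR-1a-3p, miR-133a-3p and miR-499-5p) were over 2-fold higher from P7 to P17, beside 14.0% of all miRNAs. Over the whole period only miR-499-5p was (27.3, 16.9 and 91.3 RPM), beside 10.5% of all. With median-of-ratios size factors 4 of 4 were, beside 165 of the 648 miRNAs. MiR-206-3p was within 2-fold in RPM (15.8, 22.7 and 16.9 RPM) and over 2-fold higher with those factors from P1 to P7 (1.40) and from P1 to P17 (1.07). Between P7 and P17 this list moved in the direction of miR-143 and miR-145a, and its part in their increase was not tested. From P1 to P7 the log2 change of its sum was -0.59 in RPM and 0.37 with median-of-ratios size factors, below that of miR-143-3p under both (0.93 and 1.89).

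MiRNAs of fibroblast-like and mural cells, miR-199a, miR-199b and miR-214, stayed behind miR-143 and miR-145a. The 6 forms, of which miR-199a-3p and miR-199b-3p were listed with the same reads and are summed once, gave 369, 198 and 246 RPM in order of age, a log2 change of the sum from P1 to P17 of -0.59 in RPM and 0.46 with median-of-ratios size factors. None was over 2-fold higher in any comparison or scaling. In RPM 3, among them both of the forms with shared reads, were over 2-fold lower from P1 to P7, 1 from P7 to P17 and 2 from P1 to P17, beside 44.8%, 11.6% and 46.8% of all miRNAs. With median-of-ratios size factors these counts were 1, 1 and 0, beside 71, 69 and 155 of the 648 miRNAs. Besides the forms with shared reads they were miR-199b-5p (17.9, 3.92 and 4.20 RPM), miR-214-5p (23, 34 and 7 reads) and miR-214-3p (23, 17 and 5 reads). The most abundant, miR-199a-3p, went from 304 RPM to 151 RPM and 213 RPM, and miR-199a-5p from 43.2 RPM to 39.2 RPM and 27.4 RPM.

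Blood left in the vessels would bring in miRNAs of red cells. The 5 erythroid forms, with the identical counts of miR-486a-5p and miR-486b-5p summed once, gave 163, 117 and 160.0 RPM, and the change of the sum from P1 to P7 was -0.48 on the log2 scale in RPM but 0.49 with median-of-ratios size factors. MiR-451a, the most specific to red cells, was at 45.5, 11.7 and 27.9 RPM, and miR-486a-5p at 115, 103 and 125 RPM. From P7 to P17, 2 of the 5, miR-451a and miR-144-3p, were over 2-fold higher, beside 14.0% of all miRNAs. Over the whole period only miR-144-3p was (13, 15 and 52 reads), beside 10.5% of all. With median-of-ratios size factors 4 of the 5 were, among them both miR-486 forms with identical counts, beside 165 of the 648 miRNAs. The sum was then 2.03-fold that at P1 in place of 0.984-fold.

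The leukocyte and microglial list of 6 summed to 94.1, 132 and 185 RPM, with 5 past the filter. Of these, 2 were over 2-fold higher at P17 than at P1 and 1 was lower, beside 10.5% and 46.8% of all miRNAs. The lymphocyte miRNA miR-150-5p went from 0.53 RPM to 1.80 RPM and 17.8 RPM, on 6, 23 and 207 reads, and its log2 change from P1 to P17 of 3.62 was above that of either guide strand (2.92 and 3.04). The innate immune regulator miR-146a-5p was at 55.3, 101 and 139 RPM. MiR-155-5p was over 2-fold lower from P1 to P17 (288, 174 and 117 reads). With median-of-ratios size factors 4 of the 5 were over 2-fold higher, beside 165 of the 648 miRNAs, and miR-155-5p was within 2-fold (-0.26). Neither the erythroid nor the leukocyte sum increased by the factor seen for miR-143 and miR-145a. Their part in the increase was not tested.

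The lists of epithelial miRNAs gave mixed values. The miRNAs of the pigment epithelium were miR-204-5p (14662, 6967 and 9019 RPM), miR-204-3p (103, 34.6 and 56.4 RPM) and miR-211-5p (549.7, 259 and 5315 RPM). All 3 were over 2-fold lower from P1 to P7 in RPM, beside 44.8% of all miRNAs. Their median log2 change was -1.08, against -0.87 for all. With median-of-ratios size factors none was over 2-fold lower (-0.11, -0.60 and -0.13), beside 71 of the 648 miRNAs. MiR-211-5p was over 2-fold higher from P7 to P17, beside 14.0% of all. The surface epithelial list of 3 held miR-184-3p, known from cornea and lens (101, 119 and 569 RPM). The other forms of that list, miR-205-5p and miR-200c-3p, were over 2-fold lower from P1 to P7 and from P1 to P17 in RPM. Of all miRNAs, 44.8% and 46.8% were. With median-of-ratios size factors miR-205-5p was within 2-fold (-0.97 and -0.52). MiR-200c-3p was still over 2-fold lower (-1.21 and -1.93), beside 71 and 155 of the 648 miRNAs. In RPM only miR-184-3p on these lists was higher at each age than at the one before.

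**Figure D5:**
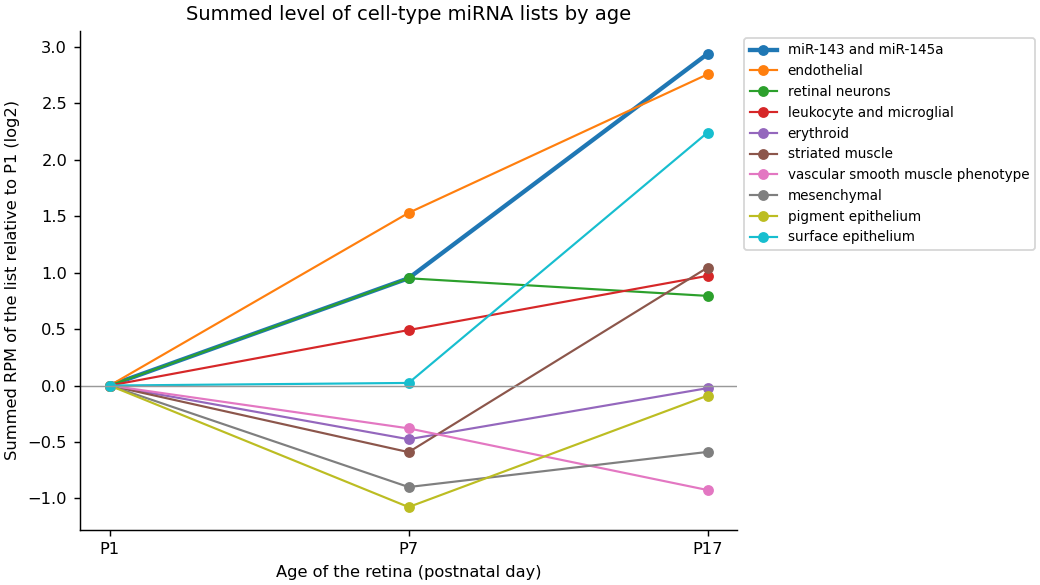
Summed RPM of each list relative to its value at P1 (log2) against age; forms listed with identical reads are summed once. The sum of miR-143 and miR-145a goes from 199 RPM to 1523 RPM and that of endothelial miR-126a from 1261 RPM to 8530 RPM, while the striated muscle, vascular smooth muscle, erythroid, mesenchymal and pigment epithelial sums are lower at P7 than at P1 in RPM, of which only the pigment epithelial sum is lower with median-of-ratios size factors.

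Among the miRNAs that averaged at least 10 RPM, those most like the guide strands were sought by the Euclidean distance between their steps on the log2(RPM + 1) scale. Each guide strand was compared with 430 others. The miRNA in place 2 for miR-143-3p was miR-145a-5p, at a distance of 0.21 log2 units, and miR-143-3p was also in place 2 for miR-145a-5p. The median distances to all candidates were 2.82 and 2.89. MiR-126a-3p stood further off, in place 15 for miR-143-3p (0.97) and place 13 for miR-145a-5p (0.79). The remaining 4 places among the nearest 5 were taken by the same miRNAs for both guide strands, and their mature sequences are shown so that their seeds (bases 2 to 8, in capitals) can be compared, with miR-126a-3p beside them. Sequences and positions are those of RefSeq on GRCm38.p6, and for miR-129-5p and miR-344d-3p, which come from several loci, 1 locus is given.

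miR-190b-3p (chr3:90070067-90070089, plus strand): aCUGAAUGucaagcauacucuca
miR-129-5p (chr2:94241419-94241439, minus strand): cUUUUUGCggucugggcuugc
miR-129-2-3p (chr2:94241376-94241397, minus strand): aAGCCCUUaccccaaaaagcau
miR-344d-3p (chr7:61683127-61683148, minus strand): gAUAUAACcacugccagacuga
miR-126a-3p (chr2:26591402-26591423, plus strand): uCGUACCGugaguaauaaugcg

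No seed was shared among these 5. MiR-129-5p, a miRNA of neurons, went from 1258 RPM to 2255 RPM and 10438 RPM, at a distance of 0.24 from miR-143-3p. MiR-129-2-3p, the other arm of one of its hairpins, was at 10.2, 25.7 and 112.5 RPM, at 0.34 from miR-143-3p and 0.22 from miR-145a-5p. MiR-190b-3p was the nearest to miR-143-3p (0.18), at 4.99, 9.95 and 37.6 RPM, and rested on 57 reads at P1. MiR-344d-3p was the nearest to miR-145a-5p (0.17), at 4.47, 12.0 and 43.7 RPM, and rested on 51 reads at P1. The order among the nearest is therefore not resolved at this depth, and with 3 ages a like pattern is only a like pair of steps.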

How the data were processed

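Small RNA of pooled mouse retinas was sequenced in 1 library per age (P1, P7 and P17), with the age read from its label. The authors trimmed adaptors, discarded low-quality reads and aligned to mm10; their methods name HISAT2, the submitters' processing notes name BWA and FastQC. The miRNA annotation and counting rule are not given in the sources used here. The authors deposited raw read counts per mature miRNA and RPM values. Each deposited RPM value equals the count over the summed miRNA counts of its library to within 0.0192 RPM.

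Changes were computed as log2(RPM + 1). The filter asked for a mean RPM of 1 or more, and over 2-fold was called changed. Intervals are 95% Wilson intervals for levels, exact binomial intervals for ratios of reads and exact conditional intervals for changes of a ratio. With 1 library per age no test was made. The members, lists and naming rule were chosen with earlier results of these data known. The rule names the 4 forms, miR-145b, listed markers with a mean of at least 10 RPM and the 5 miRNAs nearest in pattern to each guide strand; list members below that level were named after their values were seen, where they made up a stated count or define a cell type. Alternatives were other scalings, pseudocounts, filters and fold criteria. Size factors used 644 miRNAs. The scripts for changes and for exact intervals of read ratios between ages were checked on simulated counts. Wilson intervals and exact conditional intervals were not checked in that way. Python 3.11.15, pandas 2.3.3, scipy 1.17.1, R 4.3.3 and edgeR 4.0.16 (TMM factors only) were used.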

Additional observations from a re-analysis of the deposited data

How the results depend on the processing

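All 84 values obtained for the 4 forms under other scalings and pseudocounts, over 12 combinations of form and comparison, were above 0. A pseudocount cannot reverse the sign of a change, so only the values under other scalings could have fallen below 0. For the guide strands the amounts listed next moved beyond counting error except where stated. The counts were the same under each setting, so these moves come from the scaling or pseudocount alone. Why the scalings differ from each other was not tested. For miR-143-3p from P1 to P7, 0.93 became 1.89 with median-of-ratios size factors, 1.92 with TMM factors, 1.56 without the 10 most abundant miRNAs in the total and 1.34 with the miR-183 cluster left out of the total, so that it passed 2-fold under each of these. From P7 to P17 it was 2.07, 2.05 and 1.74 with median-of-ratios factors, with TMM factors and without the 10 most abundant, and from P1 to P17 3.96, 3.96, 3.30 and 3.32 under the 4 settings. For miR-145a-5p the values were 1.95, 1.97 and 1.82 from P1 to P7 and 3.96, 3.96, 3.55 and 3.45 from P1 to P17. Its change from P7 to P17 stayed within counting error under the 4 settings (2.01, 1.99, 1.73 and 1.93, in place of 1.91). From P1 to P7 so did the value with the miR-183 cluster left out (1.53, in place of 1.13). A pseudocount of 5 RPM gave 1.66 from P7 to P17 and 2.45 from P1 to P17 for miR-145a-5p, and left none of the 4 forms over 2-fold from P1 to P7.

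The number of miRNAs over 2-fold higher from P1 to P7 was 20, and became 62, 63, 49 and 39 under the 4 scalings. From P1 to P17 it was 68, and became 165 under each of the size factor and TMM scalings. A fold criterion of 4 gave 6 from P1 to P7, 17 from P7 to P17 and 38 from P1 to P17. Of 30 values for the number over 2-fold lower, 11 were not within 1.5 times, 1 of them larger. Of 42 values for the rarer arms, 7 moved beyond counting error. Adding 0.5 read to each arm, or summing both arms of a hairpin, kept each ratio within its interval. Depth limits miR-143-5p, miR-145a-3p and miR-145a-5p at P1, with 19, 22 and 62 reads. No paired analysis was possible because a single library was made per age.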
